A study of Mus musculus with 18 samples.

Results

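The 39 Hox genes of the mouse stand in 4 clusters, Hoxa, Hoxb, Hoxc and Hoxd, and were described here by the chromatin peaks that lay over them in mouse embryonic fibroblasts (MEFs) and in Hepa 1.6 hepatoma cells. They were taken from the GENCODE annotation of the mm9 assembly as all genes whose symbol is Hoxa, Hoxb, Hoxc or Hoxd followed by a number only, which gave 39 genes from 40 gene records out of 34378 gene symbols, of which 22225 were protein-coding. Hox genes encode homeodomain transcription factors that give cells an address along the body axis. Within a cluster the genes are numbered by paralogue group, so that Hoxa4, Hoxb4, Hoxc4 and Hoxd4 descend from a common ancestor, and genes with low numbers are switched on earlier and closer to the head than genes with high numbers. Fibroblasts keep part of this address when grown in culture, and their set of active Hox genes reflects the part of the embryo they come from. H3K27ac, the acetylation of lysine 27 of histone H3, marks active promoters and enhancers. H3K9me3, the trimethylation of lysine 9, marks heterochromatin, and KAP1 is a corepressor that recruits SETDB1, an enzyme that deposits H3K9me3.

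The study asked how KAP1 and its partners control clusters of KRAB zinc finger protein genes, and the same peak lists also cover the Hox clusters. H3K27ac and H3K9me3 were mapped by ChIP-seq in embryonic MEFs of C57BL/6 background, either WT Kap1 loxP/loxP or Kap1 KO, and KAP1 and SETDB1 were mapped in Hepa 1.6 cells, a hepatoma line derived from the BW7756 tumour of a C57L mouse, labelled WT. Each of these 6 conditions had 1 library, so that no value has an error between replicates and no difference between genotypes was tested. The RNA-seq of the study used 1 long-cultured clone of Kap1 KO MEFs, and whether the ChIP-seq cells came from it is not given in the sources used here, so that genotype cannot be told apart from clone or culture.

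The 6 lists held between 2957 and 36436 peaks, and their scores, as deposited, served only to rank peaks, because 9975 WT and 7710 Kap1 KO H3K27ac peaks share the score 3100. The lists give no read numbers, so depth is unknown, and bases outside all peaks can still carry signal under the calling threshold. Trim28, the gene of KAP1, had an H3K27ac peak of score 3100 at its start in both genotypes, which does not check the deletion itself. The H3K9me3 list held 14425 peaks in WT and 4319 in Kap1 KO MEFs. As for the label of the MEFs, 11 of 13 fibroblast genes had H3K27ac at a start in WT and 10 in Kap1 KO, while 0 of 10 hepatocyte genes had it in either, and of 6 pluripotency genes 0 had it in WT and 1, Esrrb, in Kap1 KO. Among neural, blood and endothelial, and epithelial markers, 2 of 3, 2 of 4 and 0 of 4 had H3K27ac at a start in both genotypes. Of all 22225 protein-coding genes, 54.0% had it in WT and 52.6% in Kap1 KO. The neural count and the blood and endothelial count are near that share. The Hepa 1.6 label could not be checked in this way, since no H3K27ac list of these cells was analysed here.

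H3K27ac covered 50.3% of the 492 kb of the 4 clusters in WT MEFs and 49.8% in Kap1 KO MEFs, against 3.25% and 3.19% of the genome. The 4 clusters were far from alike. The mark lay over most of Hoxa and Hoxb and about as many bases of Hoxc as it left free, and it was almost absent from Hoxd. In Hoxa, from the first to the last base of its genes, 70.0% of bases were under a peak in WT and 66.4% in Kap1 KO. The shares were 62.3% and 60.9% in Hoxb, and 50.2% and 52.7% in Hoxc. In Hoxd they were 7.26% and 8.10%, the lowest of the 4 clusters in both genotypes and yet above the share of the genome. Most of the marked bases were common to both genotypes. Over all clusters, 47.1% of bases were under a peak in both, 3.13% in WT only, 2.63% in Kap1 KO only and 47.1% in neither. The bases marked in WT only were most frequent in Hoxa, where they made up 7.26% of the cluster.

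**Figure D1:**
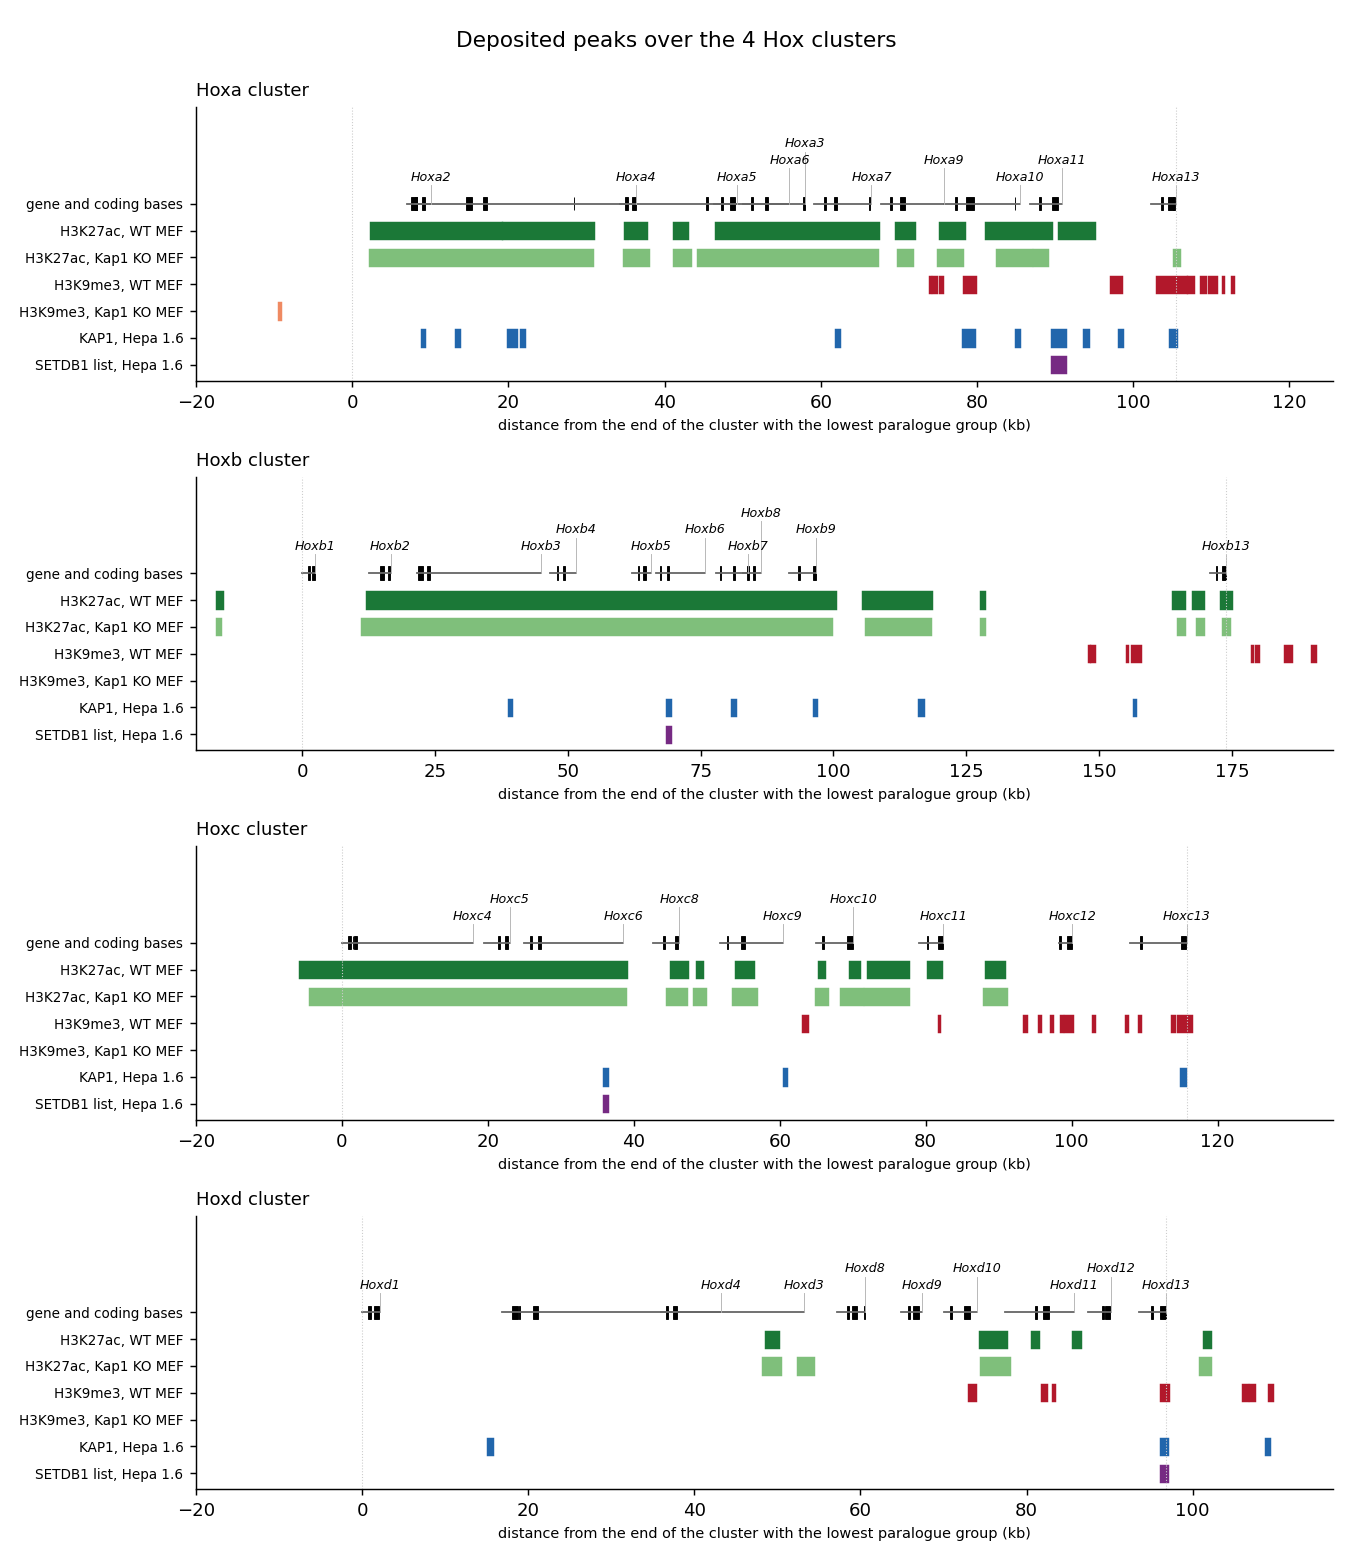
Deposited peaks of the 6 lists over each Hox cluster, drawn to scale as boxes against the distance in kb from the end of the cluster with the lowest paralogue group, with 20 kb on each side; dotted lines are the ends of the cluster, grey lines are the genes shown, black boxes their coding bases, and each name stands at the 5 prime end of its gene. The H3K27ac boxes of both genotypes fill Hoxb2 to Hoxb9 and Hoxc4 to Hoxc6, the WT H3K9me3 boxes stand toward the high-numbered end of each cluster, and the Kap1 KO H3K9me3 row is empty inside all 4 clusters.

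A gene was counted as marked when a peak lay within 500 bp of a start of any of its annotated transcripts. By this count H3K27ac marked 27 of 39 Hox genes in WT MEFs, or 69.2% with an exact Clopper-Pearson 95% interval of 52.4% to 83%, which here and below covers counting error only. In Kap1 KO MEFs it marked 26 of 39, or 66.7% with an interval of 49.8% to 80.9%. Among all 22225 protein-coding genes the share was 54.0% in WT and 52.6% in Kap1 KO. Both intervals include the share of all genes, so that the count of marked starts alone did not set the Hox genes apart. The extent of the mark over a gene was another matter. At least 90% of coding bases lay under an H3K27ac peak in 18 of 39 Hox genes in WT and in 18 in Kap1 KO, or 46.2%, against 3.47% and 3.28% of all coding genes. The median share of coding bases under a peak was 70.9% in WT and 70.4% in Kap1 KO for Hox genes, and 0% for all coding genes in both.

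Read in the order of the paralogue groups, the mark formed unbroken runs in Hoxa and Hoxb. In Hoxa every gene from Hoxa2 to Hoxa11 was marked in WT and Hoxa13 was not, while in Kap1 KO the run went from Hoxa2 to Hoxa10, stopped before Hoxa11, and a weak peak stood again at Hoxa13. In Hoxb every gene from Hoxb2 to Hoxb13 was marked in both genotypes, and only Hoxb1 was not. In Hoxc the genes Hoxc4, Hoxc5, Hoxc6, Hoxc8 and Hoxc10 were marked in both genotypes, Hoxc11 in WT only, and Hoxc9, Hoxc12 and Hoxc13 in neither. In Hoxd only Hoxd10 was marked in both, with Hoxd11 added in WT and Hoxd3 added in Kap1 KO. Of the 39 genes, 22 have several annotated starts, 84 starts in all with those of the other 17, and 57 of the 84 had H3K27ac within 500 bp in WT and 57 in Kap1 KO.

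**Figure D2:**
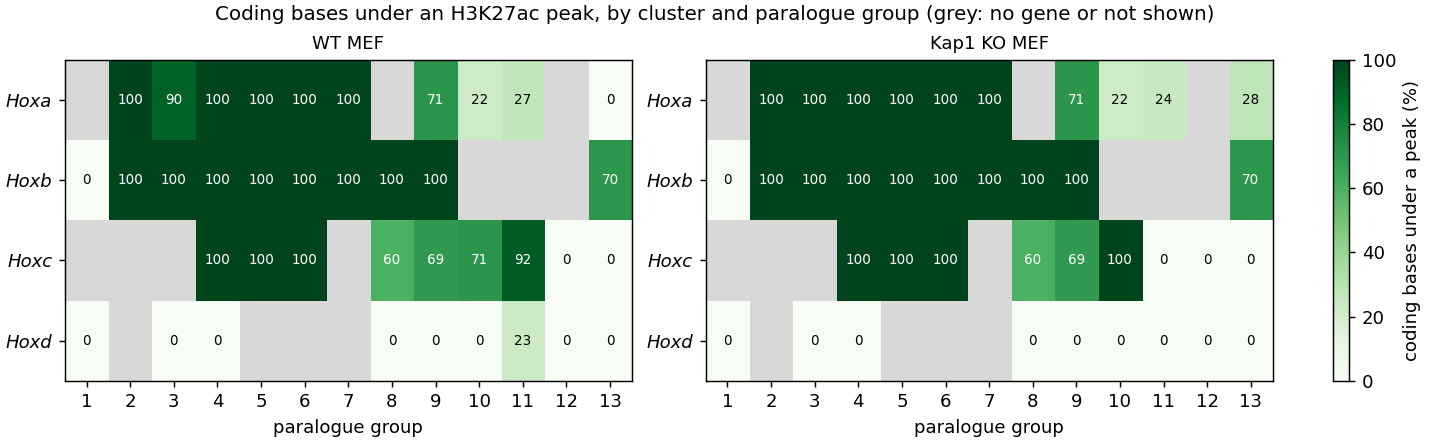
Percent of the coding bases of Hox genes under an H3K27ac peak in WT (left) and Kap1 KO (right) MEFs, by cluster (rows) and paralogue group (columns), with the value printed in each cell and grey where there is no gene or none is shown. Groups 4 to 6 read 100 in Hoxa, Hoxb and Hoxc in both genotypes, and Hoxd reads 0 throughout apart from Hoxd11 in WT.

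By class, the central groups 4 to 8 were the most often marked. H3K27ac stood at a start of 13 of 15 central genes in WT and of the same number in Kap1 KO, or 86.7% with an interval of 59.5% to 98.3%. Of the 8 anterior genes, groups 1 to 3, it marked 5 in WT and 6 in Kap1 KO, or 62.5% and 75.0%. Of the 16 posterior genes, groups 9 to 13, it marked 9 in WT and 7 in Kap1 KO, or 56.2% with an interval of 29.9% to 80.2% and 43.8% with an interval of 19.8% to 70.1%. These intervals overlap, and genes of a class often share a peak, so that they are not independent counts. The 2 central genes without the mark were Hoxd4 and Hoxd8. The 3 genes each of groups 4, 5 and 6 in Hoxa, Hoxb and Hoxc had 100% of their coding bases under a peak in both genotypes.

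**Figure D3:**
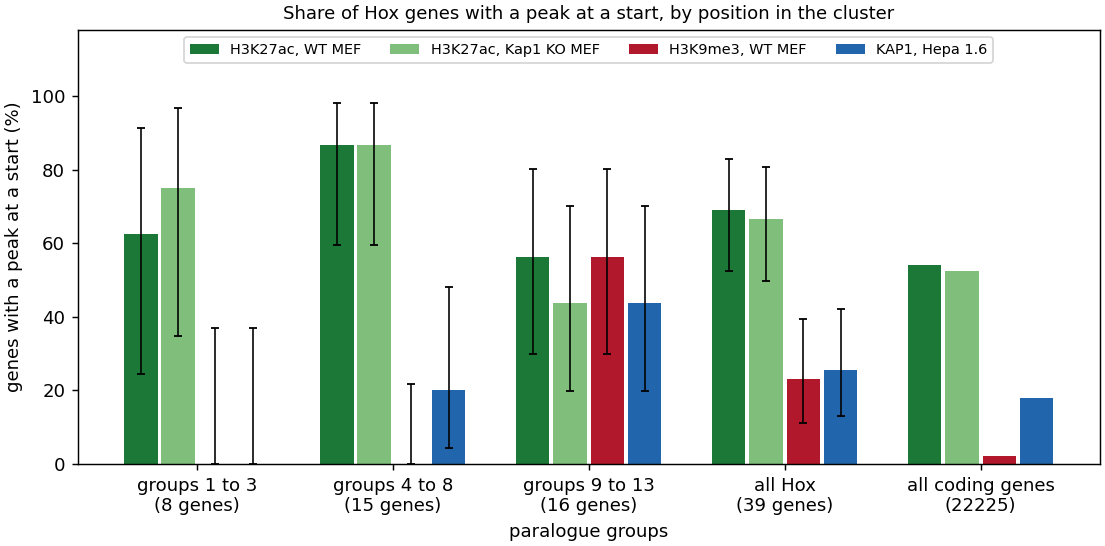
Percent of Hox genes with a peak within 500 bp of a transcript start, by class of paralogue groups, for all Hox genes and for all 22225 coding genes; bars are shares in 1 library each and whiskers are exact 95% intervals for counting error. The H3K9me3 bar stands at 56.2% in groups 9 to 13 and at 0 in the other classes, against 2.09% of all coding genes.

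Hoxb held the widest H3K27ac peak of the whole genome in both genotypes. In WT it ran over chr11:96129104-96217558, a width of 88455 bp, and in Kap1 KO over chr11:96129885-96218532, a width of 88648 bp, so that its ends moved by about 1 kb at most. It covered 100% of each of 8 genes, from Hoxb9 over Hoxb8, Hoxb7, Hoxb6, Hoxb5, Hoxb4 and Hoxb3 to Hoxb2, with their introns and all gaps between them. The WT peak scored 3100 and the Kap1 KO peak 1033.79, values that serve for ranks only. Hoxb1, which specifies a segment of the hindbrain, lay 9508 bp from the nearest H3K27ac peak in WT and 8534 bp in Kap1 KO. At the other end of the cluster Hoxb13, a gene of the tail bud and the prostate, stood 74009 bp away from Hoxb9, and 30.3% of that gap was under H3K27ac in WT and 26.2% in Kap1 KO. A peak of its own covered the start of Hoxb13, with a score of 1682.96 and a width of 2200 bp in WT and a score of 404.76 and a width of 1547 bp in Kap1 KO. Both genotypes had 6 peaks in Hoxb, and each overlapped a peak of the other genotype. This is 100% with an interval of 54.1% to 100%, against 77.2% of all H3K27ac peaks of either list, a share inside that interval.

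In Hoxa the mark was split into several domains. The first held Hoxa2, which sets the identity of the second branchial arch, and the starts of the shorter Hoxa3 transcripts. It was a single peak of 28766 bp in Kap1 KO and a pair of abutting peaks of 16923 bp and 11757 bp in WT. A small domain over Hoxa4 measured 2923 bp in WT and 3294 bp in Kap1 KO. The next held Hoxa5, a gene of lung and vertebral development, Hoxa6 and Hoxa7 together with the 5 prime end of the longest Hoxa3 transcripts, and measured 20993 bp in WT and 23147 bp in Kap1 KO. Hoxa3, needed for thymus and parathyroid, was annotated with transcripts that begin next to Hoxa6 and span Hoxa4 to Hoxa6, so that its values partly repeat theirs. Hoxa9 had a peak of score 2580.3 in WT and 2081.86 in Kap1 KO at its downstream starts, and one of 3015.13 in WT and 1314.23 in Kap1 KO at its upstream starts. The covered shares differed most at the posterior end. H3K27ac over Hoxa10 covered 73.4% of the gene in WT and 56.3% in Kap1 KO, and that over Hoxa11 83.1% and 55.8%.

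Hoxc held the second-widest H3K27ac peak of both lists, 44950 bp in WT (chr15:102828234-102873183) and 43479 bp in Kap1 KO (chr15:102828350-102871828). It covered all bases of Hoxc6, Hoxc5 and Hoxc4. Hoxc8, which patterns the lower thoracic vertebrae, was covered over 34.9% of its length in WT and 49.1% in Kap1 KO, each time by a peak of score 3100 at the start. Hoxc9 differed from its neighbours. Its 2 starts lay at least 2953 bp from any H3K27ac peak in either genotype, while 69.0% of its coding bases were covered in both. Hoxc10, a gene of the lumbar cord and hindlimb, had its start peak at a score of 205.95 in WT and 1058.13 in Kap1 KO. Its covered share was 27.8% of the gene in WT and 65.8% in Kap1 KO, and 70.9% and 100% of its coding bases. The gap between Hoxc11 and Hoxc10 was covered over 73.7% in WT and 81.5% in Kap1 KO. Hoxc12 and Hoxc13, the latter a gene of hair and nails, had no H3K27ac within 8969 bp and 24623 bp of their 5 prime ends in either genotype.

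Hoxd was mostly free of H3K27ac, with 4 peaks inside it in WT and 3 in Kap1 KO. Hoxd1, Hoxd4, Hoxd8, Hoxd9, Hoxd12 and Hoxd13 were unmarked in both genotypes and had 0% of their bases under a peak. Hoxd1 stood farthest from the mark, 46319 bp in WT and 46030 bp in Kap1 KO. The WT peak with the highest score, 1881.1, measured 3375 bp and lay beside Hoxd10 and over 91.9% of the gap between Hoxd11 and Hoxd10. In Kap1 KO the same place held a peak of score 2122.76 and 3601 bp, over 90.1% of the gap. Neither covered any base of Hoxd10, whose start was 273 bp from the WT peak and 332 bp from the Kap1 KO peak. A second shared peak inside the long Hoxd3 gene scored 219.01 in WT and 1366.09 in Kap1 KO.

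The share of each gene under H3K27ac was close in both genotypes, with a Pearson r of 0.95 and a Spearman rho of 0.96 over the 39 genes. This is a description across genes of 2 libraries, and many of the genes share a peak. A difference of at least 20 percentage points was found in 3 genes, lower in Kap1 KO for Hoxa11 and Hoxc11 and higher for Hoxc10. Over coding bases it was found in 4 genes. Hoxc11 had 92.4% in WT and 0% in Kap1 KO, and Hoxd11 had 23.1% and 0%. Hoxa13 had 0% in WT and 28.1% in Kap1 KO, and Hoxc10 was named above.

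**Figure D4:**
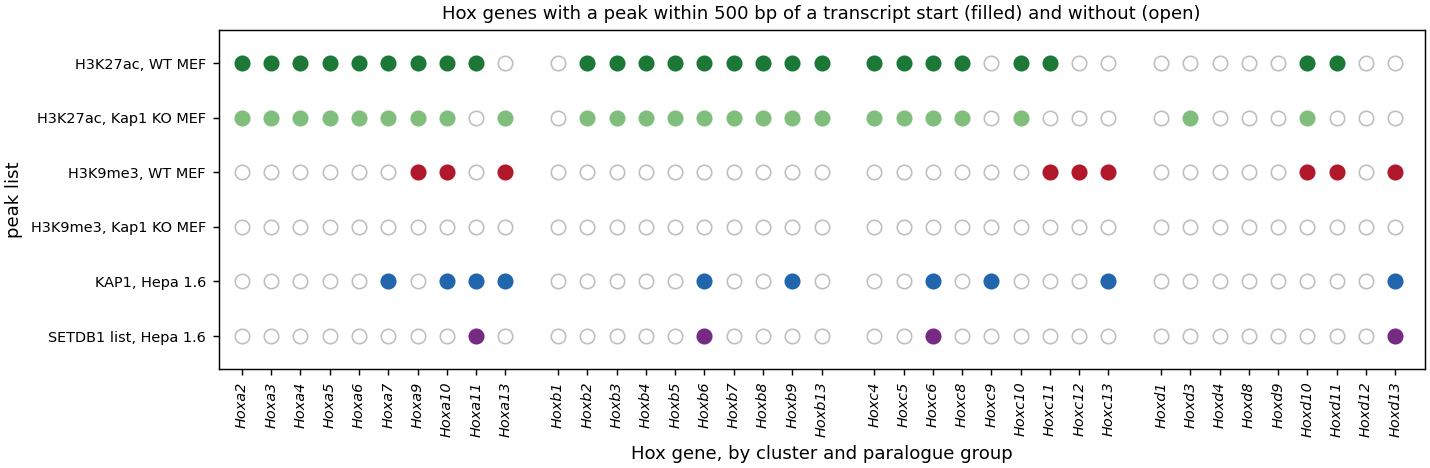
Hox genes (columns, by cluster and paralogue group) with a peak of each list (rows) within 500 bp of a transcript start, filled where there is one and open where there is none. Hoxa11, Hoxc11 and Hoxd11 are filled for H3K27ac in WT and open in Kap1 KO, Hoxa13 and Hoxd3 the other way round, and all filled H3K9me3 dots stand in groups 9 to 13.

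Of the 39 Hox genes, 3 had H3K27ac at a start in WT only and 2 in Kap1 KO only. These are 7.69% with an interval of 1.62% to 20.9%, and 5.13% with an interval of 0.627% to 17.3%, against 2.63% and 1.18% of all coding genes. The interval of each share includes the share of all genes. The 3 genes marked in WT only were Hoxa11, Hoxc11 and Hoxd11, which are all the members of paralogue group 11. Hoxa11 and Hoxd11 act together in the forearm, and all 3 in the kidney. The 2 genes marked in Kap1 KO only were Hoxa13, which acts in hand and foot, and Hoxd3.

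The group 11 genes were marked by very different peaks. At Hoxa11 the WT peak had a score of 3100 and covered chr6:52195698-52200426, over both annotated starts. With a second WT peak over the other end of the gene, 26.7% of its coding bases were covered in WT and 24.5% in Kap1 KO. In Kap1 KO the last H3K27ac peak before it ended at position 52194498, inside Hoxa11 and 1715 bp from its 5 prime end, and the gap from Hoxa11 to Hoxa13 was covered over 36.7% in WT and 0% in Kap1 KO. At Hoxc11 the WT peak scored 431.41 over chr15:102784984-102787087, beginning 126 bp downstream of the start, and the nearest Kap1 KO peak was 4771 bp away. At Hoxd11 the WT peak at the 5 prime end scored 107.94 over chr2:74516672-74517684, a second WT peak inside the gene scored 85.68, and the nearest Kap1 KO peak was 7766 bp from the 5 prime end. The start marked at Hoxd11 belongs to a transcript that is not annotated as protein-coding, and its 2 coding starts were unmarked in both genotypes. With coding transcripts only, the WT only genes were Hoxa11 and Hoxc11. Among the highest-scored 50% of each list they were Hoxa11 and Hoxb13, with a peak within 2000 bp of a start they were Hoxc11 and Hoxd11, and with a peak over the start base itself they were Hoxa11 and Hoxd11.

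At Hoxa13 the Kap1 KO peak had a score of 66.19 and a width of 935 bp over chr6:52210444-52211378, under the cutoff of 80 stated in the methods. It covered all 3 annotated starts. The nearest WT H3K27ac peak was 10448 bp away. At Hoxd3 the Kap1 KO peak had a score of 1127.63 and a width of 2045 bp over chr2:74548754-74550798. It covered the 5 prime end of the gene, 1 of 6 annotated starts, and no coding base, while the nearest WT peak was 3020 bp from that end.

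The 250 bases upstream of Hoxa11, Hoxd11 and the group 13 genes are shown because these are paralogues whose marks differed between genotypes or between clusters. They were read from mm9 on the strand of the gene, ending at the base before its 5 prime end, and hold no annotated UTR base. Hoxd13 is annotated with no 5 prime UTR, so that its window ends directly before coding bases. That window may hold untranslated bases that are not annotated. Capitals mark the dinucleotide CG, which reads the same on both strands. The windows are chr6:52196214-52196463 (minus strand) for Hoxa11, chr2:74517199-74517448 (plus strand) for Hoxd11, chr6:52210875-52211124 (minus strand) for Hoxa13, chr11:96055380-96055629 (plus strand) for Hoxb13, chr15:102751284-102751533 (plus strand) for Hoxc13 and chr2:74506117-74506366 (plus strand) for Hoxd13.
Hoxa11: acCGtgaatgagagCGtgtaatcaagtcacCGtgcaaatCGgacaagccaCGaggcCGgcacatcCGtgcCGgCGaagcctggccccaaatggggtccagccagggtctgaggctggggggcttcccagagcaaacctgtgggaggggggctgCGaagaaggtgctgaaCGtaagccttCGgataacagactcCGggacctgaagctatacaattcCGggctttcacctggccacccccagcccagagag
Hoxd11: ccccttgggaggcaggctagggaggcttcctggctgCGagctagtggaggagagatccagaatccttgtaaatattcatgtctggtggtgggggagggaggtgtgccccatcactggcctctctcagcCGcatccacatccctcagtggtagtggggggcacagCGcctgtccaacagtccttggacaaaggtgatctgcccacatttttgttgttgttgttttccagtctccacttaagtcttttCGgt
Hoxa13: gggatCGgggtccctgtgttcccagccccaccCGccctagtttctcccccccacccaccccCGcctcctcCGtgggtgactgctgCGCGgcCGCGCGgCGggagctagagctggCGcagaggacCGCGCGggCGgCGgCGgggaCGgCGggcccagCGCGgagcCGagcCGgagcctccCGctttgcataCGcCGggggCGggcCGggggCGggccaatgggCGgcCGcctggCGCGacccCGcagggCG
Hoxb13: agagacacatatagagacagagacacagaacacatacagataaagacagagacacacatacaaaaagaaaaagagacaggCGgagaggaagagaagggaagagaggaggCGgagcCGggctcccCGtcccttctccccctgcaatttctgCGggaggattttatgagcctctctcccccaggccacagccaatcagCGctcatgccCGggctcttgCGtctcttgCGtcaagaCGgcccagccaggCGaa
Hoxc13: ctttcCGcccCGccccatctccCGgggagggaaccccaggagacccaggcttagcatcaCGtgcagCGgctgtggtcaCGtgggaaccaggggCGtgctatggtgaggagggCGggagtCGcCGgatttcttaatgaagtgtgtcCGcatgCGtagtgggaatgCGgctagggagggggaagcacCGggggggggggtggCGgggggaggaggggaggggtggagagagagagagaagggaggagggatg
Hoxd13: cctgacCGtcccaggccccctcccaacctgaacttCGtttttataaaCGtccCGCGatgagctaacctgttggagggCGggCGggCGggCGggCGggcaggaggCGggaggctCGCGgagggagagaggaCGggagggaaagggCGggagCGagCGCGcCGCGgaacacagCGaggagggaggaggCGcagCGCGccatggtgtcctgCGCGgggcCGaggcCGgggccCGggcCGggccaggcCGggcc

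A CG was present in 92.5% of the 22220 upstream windows of coding genes read in this way, with a median of 8 per window. The 39 Hox windows had a median of 11 and a range of 2 to 41. Among the windows printed, Hoxa13 with 35 CG and Hoxd13 with 31 were the richest, and 3.42% and 5.87% of all windows held as many. Hoxc13 held 15 and Hoxb13 held 11, numbers reached by 33.0% and 44.2% of all windows. In group 11 the numbers were 14 for Hoxa11 and 4 for Hoxd11, reached by 35.7% and 69.1%. The window of Hoxc11, not printed, held 13, reached by 38.4%. The Hoxd11 window lies before the start of a transcript not annotated as protein-coding, and not before a coding start. The printed windows of Hoxa11 and Hoxd11 lay wholly under H3K27ac in WT and outside it in Kap1 KO. The Hoxa13 window lay wholly under H3K9me3 in WT and wholly under H3K27ac in Kap1 KO. The windows of Hoxc13 and Hoxd13 lay wholly under H3K9me3 in WT and under no MEF peak in Kap1 KO, and that of Hoxb13 lay under H3K27ac in both genotypes and under H3K9me3 in neither. Over the genes by mark, the median number of CG was 10.5 for the 24 with H3K27ac in both genotypes, 12 for the 10 with it in neither and 13 for the 9 with H3K9me3 in WT.

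H3K9me3 peaks in the Hox clusters came from the WT list and lay toward the posterior end. The WT list held 26 peaks inside the clusters, 6 in Hoxa, 4 in Hoxb, 12 in Hoxc and 4 in Hoxd, and they covered 4.18% of the bases against 0.346% of the genome. The Kap1 KO list held 0 peaks there, and over the genome it held 1.63 peaks per Mb and covered 0.171% of bases. At that rate few peaks would lie in the 492 kb of the clusters. Widened by 20 kb on each side, the clusters held 1 Kap1 KO peak, of score 61.37, beyond the anterior end of Hoxa. None of the 26 overlapped a Kap1 KO peak, with an interval of 0% to 13.2%, and across the genome 3.20% of the 14425 WT peaks did so. Of the 26 peaks, 16 had a score of at least 80. Their median GC content was 58.3%, with a range of 42.9% to 72.0%, against 47.0% for the whole list, and the part of GC content in where these peaks lay was not tested.

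In WT MEFs H3K9me3 stood at a start of 9 of 39 Hox genes, or 23.1% with an interval of 11.1% to 39.3%, against 2.09% of all coding genes. In Kap1 KO it stood at 0 of 39, against 0.594% of all coding genes. All 9 genes were posterior, 9 of 16, while 0 of 8 anterior and 0 of 15 central genes carried it. The highest peak, with a score of 1384.93, covered chr6:52208317-52212188 and with it 100% of the coding bases of Hoxa13. It was among the 53 widest of the WT list. Hoxc13 followed with a score of 662 over chr15:102750847-102752880, and 85.2% of its coding bases were covered. Hoxd13, the gene of digit formation, had a peak of 180.18 over chr2:74506105-74507147 and 75.6% of its coding bases covered. Hoxb13, the remaining member of group 13, had no H3K9me3 at its start. The 4 H3K9me3 peaks of Hoxb all lay in the gap between Hoxb13 and Hoxb9, the highest with a score of 411.87, and 4.65% of that gap was covered. The other Hox starts with the mark had peaks of 507.28 at Hoxa10, 233.05 at Hoxc12, 211.75 at Hoxd10, 151.18 at Hoxa9 and 114.9 at Hoxd11, and the lowest was 50.32 at Hoxc11.

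The 2 marks met at few bases. In WT, 3 of the 26 H3K9me3 peaks overlapped an H3K27ac peak, over 1103 bases in all. This is 11.5% with an interval of 2.45% to 30.2%, against 1.39% of the H3K9me3 peaks of the genome, a share below that interval. H3K27ac covered 50.3% of the cluster bases in WT, against 3.25% of the genome, and its part in this overlap was not tested. The 3 peaks lay at Hoxa9, Hoxa10 and Hoxc11. At Hoxa10, starts of the gene differed from each other. Its coding start 5915 bp inside the gene lay in the H3K9me3 peak of 507.28, at least 1113 bp from H3K27ac in both genotypes, while the 5 prime end was under H3K27ac peaks of score 3100. The Kap1 KO only peak at Hoxa13 lay within the WT H3K9me3 peak of that gene. Of the 26 WT H3K9me3 peaks, 2 overlapped a Kap1 KO H3K27ac peak, this one and that at Hoxa9. This is 7.69% with an interval of 0.946% to 25.1%, against 4.85% of all WT H3K9me3 peaks, a share inside that interval. The other 24 places had neither H3K9me3 nor H3K27ac in the Kap1 KO lists.

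In Hepa 1.6 cells 22 KAP1 peaks lay in the clusters, 11 in Hoxa, 6 in Hoxb, 3 in Hoxc and 2 in Hoxd, or 44.7 per Mb against 5.03 in the genome. A KAP1 peak stood at a start of 10 of 39 Hox genes, or 25.6% with an interval of 13% to 42.1%, against 18.0% of all coding genes, a share inside that interval. By class these were 0 of 8 anterior, 3 of 15 central and 7 of 16 posterior genes. The highest KAP1 peak, with a score of 1408, covered both starts of Hoxa11 over chr6:52194831-52196793, next to the place where H3K27ac ended in Kap1 KO MEFs. Peaks of 1116 and 1058 lay at an inner start of Hoxb6 and inside Hoxb3 away from its starts. Hoxa10 had peaks of 797 and 88, and Hoxd13 and Hoxa13 had peaks of 624 and 557. Those at Hoxc6, Hoxc13, Hoxb9, Hoxa7 and Hoxc9 scored 423, 219, 150, 139 and 122. The GC content of the KAP1 peaks in the clusters had a median of 59.1%, against 48.5% for the whole list, and its part in their position was not tested.

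The deposited SETDB1 list holds only entries that are also in the KAP1 list, with the same position and score, and is read here as KAP1 peaks shared with SETDB1. It held 1 peak in each cluster, at Hoxa11, Hoxb6, Hoxc6 and Hoxd13, or 4 of 39 genes. This is 10.3% with an interval of 2.87% to 24.2%, against 1.62% of all coding genes. Of the 22 KAP1 peaks in the clusters these 4 make up 18.2%, with an interval of 5.19% to 40.3%, while 22.1% of all KAP1 peaks are in the SETDB1 list.

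Set against the MEF lists, which come from another cell type, 6 of 22 KAP1 peaks overlapped a WT H3K9me3 peak, or 27.3% with an interval of 10.7% to 50.2%, against 13.9% of all KAP1 peaks. They lay at Hoxa10, Hoxa13, Hoxc13 and Hoxd13, in the gap between Hoxa11 and Hoxa13, and in that between Hoxb13 and Hoxb9. At Hoxa10 the 2 peaks nearly coincided, with KAP1 over chr6:52183477-52185146 and H3K9me3 over chr6:52183540-52185189. More of the KAP1 peaks fell under H3K27ac, 15 of 22 in WT, or 68.2% with an interval of 45.1% to 86.1%, and 14 of 22 in Kap1 KO, against 36.9% and 39.7% of all KAP1 peaks. H3K27ac covered about as many bases of the clusters as it left free, and whether the overlap went beyond that was not tested.

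The clusters also hold miRNA genes. Those of the families miR-10 and miR-196, among whose known targets are Hox transcripts, are shown because genes with the same seed differed in mark. The mature 5p sequences are those of RefSeq for GRCm38.p6, with the seed, bases 2 to 8, in capitals.
mmu-miR-10a-5p: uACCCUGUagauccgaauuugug
mmu-miR-10b-5p: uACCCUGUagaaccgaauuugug
mmu-miR-196a-5p: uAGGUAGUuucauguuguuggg
mmu-miR-196b-5p: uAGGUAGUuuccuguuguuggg

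All 5 genes of these families in the clusters matched the table, and they fall into 2 seeds, ACCCUGU and AGGUAGU. Mir10a, inside the annotated span of Hoxb4 at chr11:96178479-96178588, lay wholly within the wide H3K27ac peak in both genotypes. Its relative Mir10b, inside that of Hoxd4 at chr2:74564127-74564194, stood 9409 bp from H3K27ac in WT and 9120 bp in Kap1 KO. Mir196b inside Hoxa9 (chr6:52180080-52180164) and Mir196a-2 between Hoxc10 and Hoxc9 (chr15:102803772-102803881) lay wholly under H3K9me3 in WT and under no peak of the mark in Kap1 KO. Mir196a-1 at chr11:96126478-96126579, between Hoxb13 and Hoxb9, was under no peak of any list.

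Of 17 genes listed beside or inside the clusters, 13 are named in this annotation. Of all coding genes, 54.0% had H3K27ac at a start in WT and 52.6% in Kap1 KO. Near that share, 6 of the 13 had it in both genotypes. These were Mir10a, Mir196b and the genes Skap2, Hibadh, Lnp and Mtx2 outside the clusters. Evx1 and Evx2, homeobox genes beyond Hoxa13 and Hoxd13, had none in either. Evx2 carried H3K9me3 at a start in WT and not in Kap1 KO.

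The genes that work with Hox factors or on Hox chromatin were marked alike by H3K27ac in both genotypes. All 9 genes of the TALE family, the Pbx, Meis and Pknox cofactors with which Hox proteins bind DNA, had H3K27ac at a start in WT and in Kap1 KO. All 15 annotated Polycomb and Trithorax genes, among them Ezh2, the methyltransferase of H3K27, and Mll1, had it too, against 54.0% of all coding genes in WT and 52.6% in Kap1 KO. KAP1 stood at a start of 9 of the 15 in Hepa 1.6 cells, against 18.0% of all coding genes. Of the 9 TALE genes, 1 had KAP1 at a start, Meis2. Of the 15, 1 gene, Cbx7, had H3K9me3 at a start in WT and 0 in Kap1 KO, against 2.09% and 0.594% of all coding genes. Of 30 other factors of position and patterning, 16 had H3K27ac at a start in WT and 14 in Kap1 KO. These counts are near the shares of all coding genes. The 2 of 30 that had it in WT only were Pitx1, a gene of the hindlimb, and Pax3, against 2.63% of all coding genes. H3K9me3 stood at a start of 4 of the 30 in WT, Hand2, Lhx2, Cdx2 and Pax3, and of 0 in Kap1 KO, against 2.09% and 0.594% of all coding genes. KAP1 stood at a start of 10 of the 30, against 18.0% of all coding genes. A peak of the SETDB1 list stood at a start of 6 of the 30, against 1.62% of all coding genes. Cdx2, Gsx1 and Shox2 were among these 6.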

How the data were processed

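Peak lists of 6 ChIP-seq libraries were used, 1 library per condition: H3K27ac and H3K9me3 in WT and Kap1 KO MEFs, and KAP1 and SETDB1 in Hepa 1.6 cells. Per the methods, the authors aligned reads to mm9 with Bowtie 2 and used MACS, with total input as control, to call peaks, and the submitters' processing notes name Bowtie2 2.2.1, MACS 1.4 and CASAVA 1.82. The deposited files give each peak's position and a score, and hold no read counts. The methods state a score cutoff of 80, while the MEF lists start at 50. The SETDB1 list is a subset of the KAP1 list.

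Groups were taken from the sample labels. Positions of Hox genes and of their transcripts were read from GENCODE for mm9, with records of the same symbol and chromosome merged. A gene was marked when a peak lay within 500 bp of a start, peaks overlapped when they shared at least 1 bp, and a cluster ran from the first to the last base of its Hox genes. Sequences were read from mm9, and miRNAs from RefSeq (GRCm38.p6). Coordinates are counted from 1. With 1 library per condition no test was run. Exact Clopper-Pearson 95% intervals cover counting error only, and neighbouring genes that share a peak are not independent. Hox genes were named by symbol, and other genes only from the lists of cluster neighbours, cofactors, chromatin regulators, positional factors and cell type markers. The members and lists were chosen with earlier results of these data known.

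The alternatives were a score of at least 80, the highest-scored 50% of each list, equal numbers of peaks in both genotypes, other start windows, the 5 prime end only, coding transcripts only, clusters widened by 20000 bp and an overlap of 50%. Peak counts were checked with bedtools 2.31.1 and were identical for 6 of 6 lists, and the start rule was tested on simulated data over 22225 genes, where 100% of 200 placed peaks were recovered. These peaks were placed over 5 prime ends of genes, so that their recovery checks only that the rule was computed as stated. Python 3.11.15, numpy 2.4.6, scipy 1.17.1 and matplotlib 3.10.9 were used. Liver, embryonic stem cell, input and RNA-seq libraries were not analysed here. Some items were left out and are not reported here by name, though counts over all Hox genes and over the lists include them.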

Additional observations from a re-analysis of the deposited data

How the results depend on the processing

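With 1 library per condition, no spread between replicates is known and no difference between genotypes or cell types was tested. No paired analysis was possible because each condition used here had 1 library, and the replicate numbers in the labels belong to libraries not analysed here. Depth is unknown, since the lists hold peaks and no reads, so that a missing peak can also reflect the calling threshold.

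A count was taken as kept when it stayed within 1.5 times its main value, and a share of bases when it stayed within the exact 95% binomial interval of the main share over all cluster bases, which is narrow. By these limits 45 values of the main comparisons were kept and 8 moved, and H3K9me3 peaks in WT were 38 with the clusters widened. At a score of at least 80, H3K9me3 peaks in the clusters in WT went from 26 to 16, Hox genes with H3K27ac at a start in Kap1 KO only from 2 to 1, and the H3K27ac share of cluster bases in WT from 50.3% to 49.9%. In the highest-scored 50% of each list that share was 46.8% in WT and 47.1% in Kap1 KO. With the clusters widened by 20000 bp it was 39.4% and 38.8%, and H3K9me3 peaks in Kap1 KO went from 0 to 1. The first 2 settings keep fewer peaks and the last adds bases outside the clusters. The order of the WT and Kap1 KO shares turned in the highest-scored 50%.

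Hox genes with H3K27ac at a start ranged from 24 to 27 in WT and from 24 to 27 in Kap1 KO over all settings. Counting only coding transcripts, an alternative chosen after seeing the data, gave 26 in each. The genes marked in WT only changed with the setting, and Hoxd3 was marked in Kap1 KO only under each of those run. Hox genes with H3K9me3 at a start in WT ranged from 6 to 9.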
